A study of Mus musculus with 41 samples.

Results

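Acute phase proteins are plasma proteins whose output from the liver changes during inflammation. The 10 genes described here encode proteins that rise in that response in mice: the serum amyloid A genes Saa1, Saa2 and Saa3, the orosomucoid genes Orm1, Orm2 and Orm3, haptoglobin (Hp), hemopexin (Hpx), lipocalin 2 (Lcn2) and serum amyloid P (Apcs). They were taken by symbol from the gene symbol column of the expression table. All 10 were found among its 24511 symbols, and all 10 were among the 12337 genes kept for the tests.

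The samples were liver or liver tumour tissue of male C57BL/6 mice, measured by RNA-seq of polyadenylated RNA. The labels give no age. HCC is hepatocellular carcinoma (liver tumour tissue), NASH is steatohepatitis, and HFD control is a fatty liver labelled healthy. All libraries of these stages carry HFD, a high-fat diet, in their titles. Livers labelled simply healthy carry NC instead, which the labels do not spell out. Genotype names are kept as the labels give them: B6, MupHe, IgAkMup, CD8kMup and IgAkCLM. The Mup in these names is known from the published model, the MUP-uPA mouse, in which a urokinase transgene is driven in hepatocytes by the major urinary protein promoter. The labels do not spell out the parts IgAk, CD8k, He and CLM. The groups of tumours were MupHe HCC and IgAkMup HCC, of 4 libraries each, and CD8kMup HCC, of 3. The groups of livers, of 3 libraries each, were NASH in MupHe and IgAkMup, HFD control in B6 and IgAkCLM, and NC in B6, MupHe, IgAkMup and CD8kMup. CD8kMup NASH and CD8kCLM HFD control are not analysed here, because 6 of the 41 columns matched both groups.

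In the acute phase response, interleukin 6 and interleukin 1, made by macrophages and other cells at a site of injury, act on receptors of hepatocytes. STAT3, C/EBP factors and NF-kappa-B then raise transcription of acute phase genes, while genes of other plasma proteins, such as albumin, fall. Hepatocytes make most of these proteins, but Saa3 and Lcn2 are also made by macrophages, epithelium and other cells, and Lcn2 is stored in neutrophil granules.

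The genes form small families, and the sequences just before the gene starts are shown for the members with near copies and for Apcs, whose window holds other motifs than the rest. Saa1, Saa2 and Saa3 lie together on mouse chromosome 7 (GRCm38, GENCODE vM21 gene models: Saa1 at chr7:46740497-46742980, Saa2 at chr7:46751790-46754313, Saa3 at chr7:46711998-46715700). Orm1, Orm3 and Orm2 lie together on chromosome 4 (chr4:63344560-63348163, chr4:63356162-63359511 and chr4:63362449-63365878). The Saa1 and Saa2 transcripts were 94.4% identical over 606 aligned bases, and their windows of 250 bases 95.6% identical over 249. Saa3 was 60.2% identical to Saa1. The Orm transcripts were 86.5% to 91.0% identical to each other, and the Orm2 and Orm3 windows 89.0%. The sequences below are from RefSeq (GRCm38.p6), 5′ to 3′ on the gene's strand, and run up to the annotated start. Bases inside the GENCODE gene model were left off, which shortened the Saa2 window to 207 bases. Capitals mark the C/EBP form in the Saa and Orm windows, and in Apcs 1 STAT form (the first) and 2 IL-6 response elements.
Saa1, chr7:46742981-46743230, minus strand: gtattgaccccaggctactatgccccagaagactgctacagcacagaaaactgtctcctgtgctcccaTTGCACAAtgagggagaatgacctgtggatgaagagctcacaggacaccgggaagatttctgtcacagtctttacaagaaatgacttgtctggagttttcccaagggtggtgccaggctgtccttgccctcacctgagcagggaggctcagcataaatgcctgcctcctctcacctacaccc
Saa2, chr7:46751583-46751789, plus strand: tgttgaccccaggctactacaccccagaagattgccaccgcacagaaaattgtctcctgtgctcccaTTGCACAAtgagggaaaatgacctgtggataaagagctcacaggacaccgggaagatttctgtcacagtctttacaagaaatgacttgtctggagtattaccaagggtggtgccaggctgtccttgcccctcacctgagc
Orm2, chr4:63362199-63362448, plus strand: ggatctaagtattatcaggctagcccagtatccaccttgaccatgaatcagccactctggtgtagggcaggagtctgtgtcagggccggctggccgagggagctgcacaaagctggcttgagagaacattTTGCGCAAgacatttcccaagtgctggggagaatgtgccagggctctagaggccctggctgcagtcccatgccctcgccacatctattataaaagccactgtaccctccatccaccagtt
Orm3, chr4:63355908-63356157, plus strand: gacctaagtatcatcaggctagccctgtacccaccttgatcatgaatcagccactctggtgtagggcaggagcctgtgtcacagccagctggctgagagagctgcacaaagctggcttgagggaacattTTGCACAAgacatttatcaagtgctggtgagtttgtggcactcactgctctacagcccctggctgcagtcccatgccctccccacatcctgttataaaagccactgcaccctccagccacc
Apcs, chr1:172895055-172895304, minus strand: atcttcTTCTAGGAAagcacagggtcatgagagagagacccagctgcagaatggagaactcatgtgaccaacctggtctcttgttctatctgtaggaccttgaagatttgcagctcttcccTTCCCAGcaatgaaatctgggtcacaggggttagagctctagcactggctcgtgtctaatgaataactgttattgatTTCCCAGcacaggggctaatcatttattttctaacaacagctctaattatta

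The C/EBP form TTNNGCAA, searched on both strands, was in the 250 bases before the RefSeq start of 7 of the 8 members in the promoter table (Saa1, Saa2, Saa3, Orm2, Orm3, Lcn2 and Hpx), and in 9.56% of all 32851 promoters of the table. These 7 are not independent, as the Saa1 and Saa2 windows (95.6% identical) and the Orm2 and Orm3 windows (89.0%) are near copies. The whole Lcn2 window lies inside the GENCODE gene model of Lcn2, so by that annotation its match is not before the start. Apcs had no C/EBP match. Apcs had 1 match to the STAT form TTCNNNGAA, which 7.02% of promoters held, and 2 to the IL-6 response element CTGGGAA, which 9.10% held. No member window held the NF-kappa-B form searched, which 1.41% of promoters held. Hp and Orm1 have no entry in that table. The matches describe letters in these windows and show no binding. In the printed Saa1 and Saa2 windows the C/EBP match has the same letters.

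Values are regularized log2 (rlog) values as the authors deposited them, so a difference of 1 is a factor of 2 and errors of differences are standard errors. The transformation pulls a gene with few reads toward its mean and so shrinks its differences. Levels are not comparable between genes, because they are not scaled by gene length. The sequencing depth is unknown. The first principal component of the kept genes (47.9% of the variance) set the 11 tumours, at 23.05 to 64.95, apart from the 24 livers, at -34.91 to -5.08. On the second (12.6%), 3 tumours (number 3 of MupHe and numbers 5 and 9 of IgAkMup) lay at -35.56 to -28.45, apart from the other tumours at -5.12 to 24.72. The column names also hold a tag, unexplained in the labels. It is SS in all tumours, IgAkMup NASH and B6 HFD control, and Tri in all NC livers, MupHe NASH and IgAkCLM HFD control. MupHe tumours and MupHe NASH therefore differ in the tag, as do CD8kMup tumours and CD8kMup NC, IgAkMup NASH and IgAkMup NC, and B6 HFD control and B6 NC, and tag and stage cannot be told apart there. IgAkMup tumours and NASH share SS. In addition, every comparison of an HFD group with an NC group sets libraries apart that differ in the diet label and, per the submitters' processing notes, in the tools listed, and these cannot be told apart from stage either. The labels do not say that libraries of a group are separate animals, so p-values measure the spread between these samples. In bulk tissue, fewer cells of a type and less RNA per cell cannot be told apart.

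Comparing tumours with livers of the same genotype, 7 of the 10 genes passed the test in MupHe (HCC against NASH), where 30.7% of all kept genes passed. Lcn2, Hp, Apcs and Orm2 were higher (16% of all genes were called higher) and Saa1, Saa2 and Saa3 lower (14.7%). In IgAkMup (HCC against NASH) 7 passed, against 43.8% of all genes: Lcn2, Hp and Apcs were higher (23.2%) and Saa2, Saa3, Orm1 and Orm3 lower (20.7%). In CD8kMup, where only NC livers could serve as the comparison and diet label, tag and listed tools differ along with stage, 2 passed, Lcn2 and Hp, both higher (16.8% of genes called higher, 33.8% called in all). The median difference over the 10 genes was 0.08, -0.54 and 0.63 in these comparisons, and over all kept genes 0.0042, 0.04 and 0.01. All calls are limma tests at an adjusted p under 0.05. Counts over the 10 were fewer when only the 2 groups compared entered the fit in MupHe, where 1 gene passed (Lcn2), and in IgAkMup, where 4 did (Lcn2, Saa2, Saa3 and Orm3). Calls over all 12337 genes also fell in that fit, from 3784 to 1210 in MupHe and from 5408 to 3205 in IgAkMup. In CD8kMup that fit called 4, the former 2 with Hpx higher (0.63, adjusted p = 0.0276) and Orm1 lower (-0.47, adjusted p = 0.0105).

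**Figure D1:**
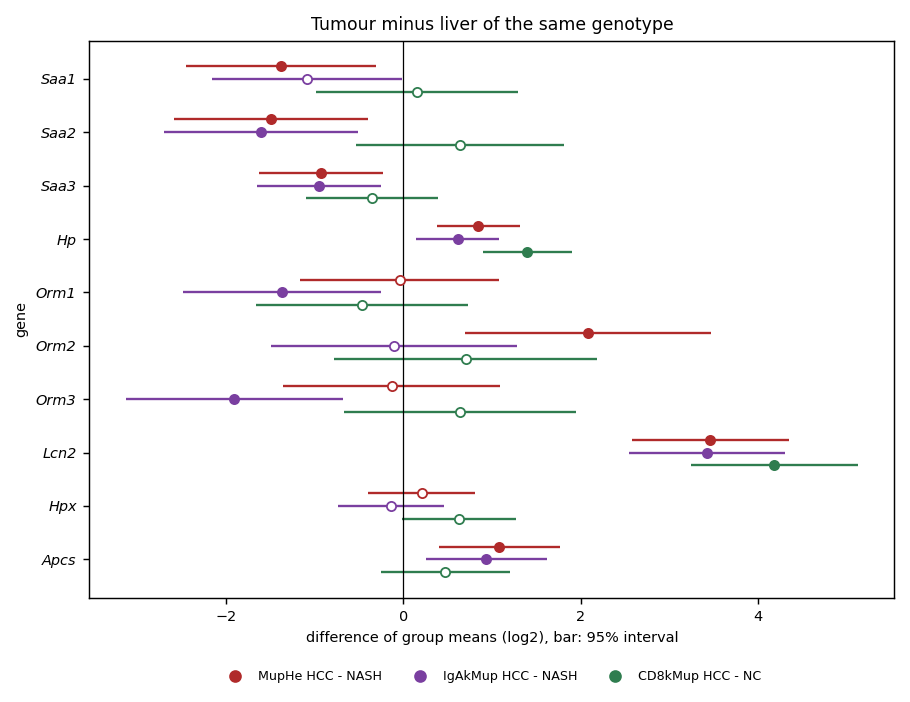
Difference of group means (log2, x axis) for each of the 10 genes (y axis), tumour minus liver of the same genotype; bars are 95% intervals from limma, and filled points passed an adjusted p of 0.05. Lcn2 lies farthest right in all 3 comparisons, at 3.46, 3.42 and 4.18, while the Saa genes lie left of 0 in the MupHe and IgAkMup comparisons.

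Lcn2 encodes lipocalin 2, a secreted protein that binds iron-carrying siderophores of bacteria. It stood at 12.18, 10.98, 11.90 and 12.81 in the MupHe tumours 2, 3, 4 and 7, and at 8.24, 8.50 and 8.77 in MupHe NASH. It stood at 11.54, 12.52, 11.27 and 10.31 in the IgAkMup tumours 5, 7, 8 and 9, and at 7.28, 8.30 and 8.38 in IgAkMup NASH. The CD8kMup tumours 3, 4 and 8 had 11.47, 10.87 and 9.96, and the CD8kMup NC livers 6.87, 5.94 and 6.94. Every tumour was above every liver of any group: the lowest of 11 tumours had 9.96 and the highest of 24 livers 8.77. Lcn2 was higher in tumours by 3.46 ± 0.43 in MupHe (limma adjusted p = 1.08e-06), or 11-fold. The rise was 3.42 ± 0.43 in IgAkMup (adjusted p = 6.11e-07), or 10.7-fold, and 4.18 ± 0.46 in CD8kMup (adjusted p = 2.10e-07), or 18.2-fold. These differences lay at the percentiles 99.8, 99.8 and 99.9 of all kept genes. With any 1 library left out, Lcn2 passed in each of the 3 comparisons, with differences of 3.18 to 3.79, 3.05 to 3.79 and 3.83 to 4.59.

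Ordered by group mean, Lcn2 was lowest in B6 NC (5.78 ± 0.35, SD, n = 3), followed by CD8kMup NC (6.58 ± 0.56), IgAkCLM HFD control (7.13 ± 0.49), IgAkMup NC (7.15 ± 0.17) and MupHe NC (7.15 ± 0.26). B6 HFD control (7.90 ± 0.69), IgAkMup NASH (7.99 ± 0.61) and MupHe NASH (8.50 ± 0.27) came next. The tumours came last, with CD8kMup at 10.77 ± 0.76, IgAkMup at 11.41 ± 0.91 (n = 4) and MupHe at 11.97 ± 0.76 (n = 4). Neighbours in this order differed by less than the larger of their SDs at each step except from B6 NC to CD8kMup NC, from MupHe NC to B6 HFD control and from MupHe NASH to CD8kMup HCC. The step from MupHe NASH to CD8kMup HCC was also the only one between neighbours whose libraries did not overlap.

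Markers of cells that also make Lcn2 were read beside it. Of 16 neutrophil markers 5 were kept, and the summed level (log2) of all 16 was 6.86 to 7.52 in livers and 7.18 to 7.92 in tumours. In MupHe, IgAkMup and CD8kMup tumours 1, 2 and 2 of the 5 kept were called higher and 0 lower. Of all kept genes 16%, 23.2% and 16.8% were called higher there, and 30.7%, 43.8% and 33.8% in either direction. Ncf4, a subunit of the phagocyte oxidase, was higher in all 3 (0.54 ± 0.18, 0.53 ± 0.18 and 0.55 ± 0.19), Csf3r, the receptor of granulocyte colony-stimulating factor, in IgAkMup (0.83 ± 0.16), and Ncf1, another oxidase subunit, in CD8kMup (0.72 ± 0.24). S100a8 and S100a9, abundant neutrophil proteins, did not pass in any of the 3 tumour comparisons (S100a9 -0.04, 0.45 and 0.18, with limma adjusted p = 0.888, 0.0521 and 0.524). The granulocyte genes Ly6g and Mpo were below the filter, at -2.25 to -2.23 and -1.24 to -1.14 over all libraries, a level at which rlog values hardly vary, so they show nothing about neutrophils. The 18 monocyte and macrophage markers, all kept, summed to 11.5 to 12.7 in livers and 12.6 to 15.4 in tumours. In MupHe, IgAkMup and CD8kMup 8, 9 and 10 of them were called higher and 4, 5 and 2 lower, beside the same shares of all genes. Cholangiocyte markers (10 of 12 kept) summed to 9.62 to 11.1 in livers and 9.87 to 15.3 in tumours. The part of these cells in the Lcn2 difference was not tested.

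**Figure D2:**
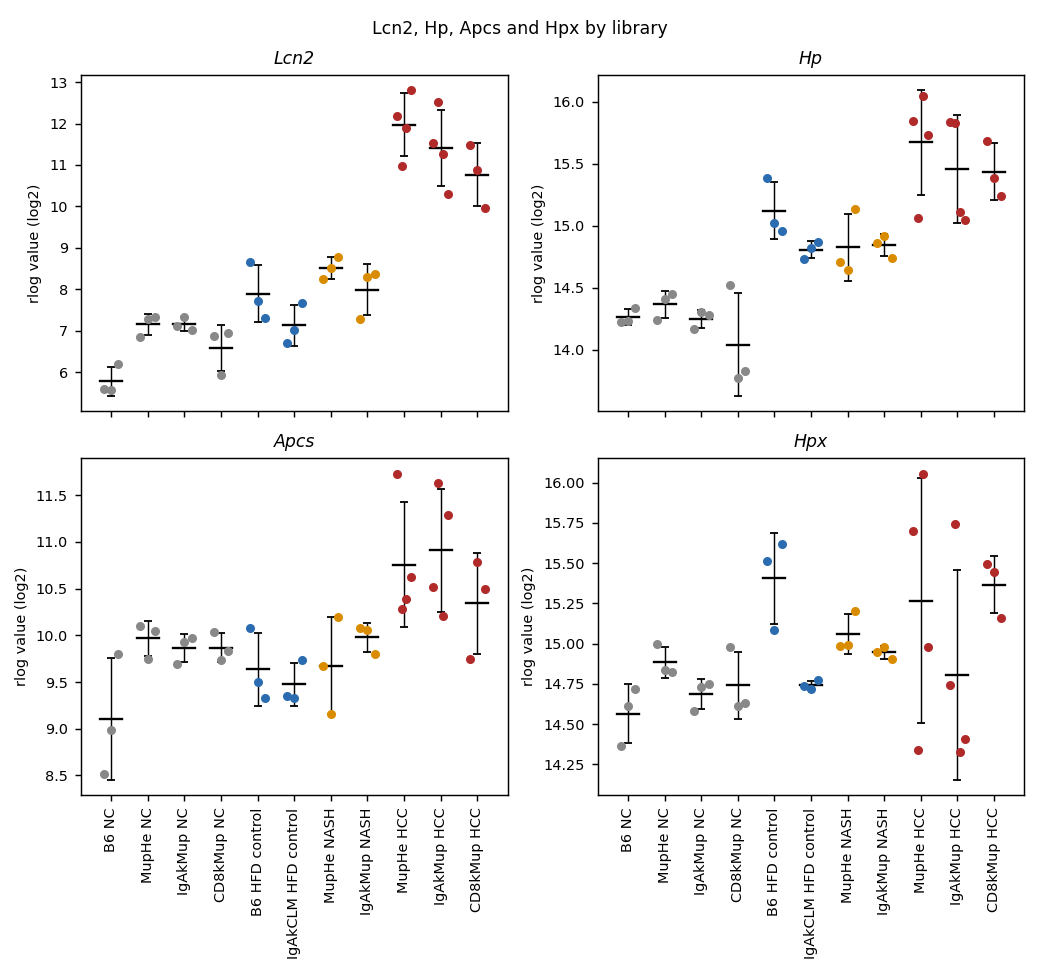
Values of Lcn2, Hp, Apcs and Hpx (rlog, log2, y axes) in each library by group (x axis); bars are group means with SD, grey points NC livers, blue HFD controls, orange NASH and red tumours. The Lcn2 tumours, at 9.96 to 12.81, lie above all livers, and the Apcs tumours above all livers but for 1.

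Haptoglobin and hemopexin bind free haemoglobin and free haem in plasma and carry them to clearance receptors. Hp stood at 15.85, 15.07, 16.04 and 15.73 in the MupHe tumours and 14.70, 14.64 and 15.14 in MupHe NASH. In IgAkMup it stood at 15.83, 15.83, 15.11 and 15.05 in tumours and 14.86, 14.91 and 14.74 in NASH. In CD8kMup it stood at 15.69, 15.38 and 15.24 in tumours and 14.52, 13.77 and 13.83 in NC livers. The IgAkMup and CD8kMup tumours lay wholly above the livers they were compared with, while 1 MupHe NASH liver was above the lowest MupHe tumour. Of the 11 tumours 6 were above every liver.

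Hp was higher by 0.85 ± 0.23 in MupHe tumours (limma adjusted p = 0.00626), by 0.61 ± 0.23 in IgAkMup (adjusted p = 0.0310) and by 1.40 ± 0.24 in CD8kMup (adjusted p = 9.60e-05). The MupHe and CD8kMup calls held with each library left out (adjusted p up to 0.0386 and 0.00141). The IgAkMup call was lost without tumour 5 (0.49, adjusted p = 0.103), tumour 7 (0.49, 0.0921), or NASH liver 2 (0.63, 0.0686), 3 (0.65, 0.0555) or 6 (0.57, 0.0914). With the compared groups alone, Hp did not pass in MupHe (adjusted p = 0.158) or IgAkMup (0.233) and passed in CD8kMup (0.00222). The IgAkMup call was also lost without a filter on low values (adjusted p = 0.0592) and with libraries centred on their medians (0.55, adjusted p = 0.0558).

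Hpx did not pass in any tumour comparison. Its differences were 0.21 ± 0.29 in MupHe (95% interval -0.39 to 0.81), -0.14 ± 0.29 in IgAkMup (-0.74 to 0.46) and 0.63 ± 0.31 in CD8kMup (-0.02 to 1.27). Its tumours were spread widely: 15.70, 14.34, 16.06 and 14.98 in MupHe and 14.74, 15.75, 14.33 and 14.41 in IgAkMup, against 14.99, 14.99 and 15.20 and 14.95, 14.98 and 14.90 in the matching NASH livers. In each of these genotypes the tumours lay on both sides of the NASH livers. The SD within groups was 0.62 in tumours and 0.15 in NC livers. In CD8kMup, Hpx passed after quantile normalization (0.98, adjusted p = 0.00270).

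Apcs encodes serum amyloid P, a pentraxin that binds amyloid, bacteria and DNA and is the main pentraxin of the acute phase in mice. It stood at 11.73, 10.28, 10.38 and 10.63 in MupHe tumours and 9.67, 9.16 and 10.19 in MupHe NASH. In IgAkMup it stood at 10.52, 11.63, 10.21 and 11.29 in tumours and 10.08, 10.06 and 9.79 in NASH. In CD8kMup it stood at 9.74, 10.79 and 10.50 in tumours and 10.04, 9.73 and 9.83 in NC livers. All tumours but CD8kMup HCC 3 were above all 24 livers. The differences were 1.08 ± 0.33 in MupHe (limma adjusted p = 0.0150), 0.93 ± 0.33 in IgAkMup (adjusted p = 0.0248) and 0.47 ± 0.36 in CD8kMup (adjusted p = 0.319). The MupHe call was lost without tumour 2 (0.76, adjusted p = 0.0678) or NASH liver 2 (0.82, 0.108). The IgAkMup call was lost without tumour 7 (0.70, 0.0962), tumour 9 (0.81, 0.0704) or NASH liver 6 (0.84, 0.0828). With the compared groups alone neither passed (adjusted p = 0.108 and 0.0699). Without the 3 tumours that stood apart, Apcs passed in MupHe (1.24, adjusted p = 0.00802) and not in IgAkMup (0.94, 0.0562).

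Serum amyloid A proteins are carried on high-density lipoprotein, and Saa1 and Saa2 are the main hepatic forms. All 3 Saa genes were called lower in MupHe tumours against NASH, and Saa2 and Saa3 in IgAkMup, and each of these calls was lost with at least 1 single library left out. Saa2 stood at 7.47, 6.33, 8.45 and 8.10 in MupHe tumours and 8.15, 8.67 and 10.41 in MupHe NASH. In IgAkMup it stood at 6.65, 7.81, 7.72 and 5.91 in tumours and 8.35, 8.67 and 8.85 in NASH. The IgAkMup tumours lay wholly below the NASH livers, and 1 MupHe tumour was above the lowest MupHe NASH liver. Saa2 was lower by -1.49 ± 0.53 in MupHe (limma adjusted p = 0.0346) and -1.60 ± 0.53 in IgAkMup (adjusted p = 0.0167).

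Saa1 stood at 8.84, 7.28, 9.11 and 8.75 in MupHe tumours and 8.85, 9.40 and 11.37 in MupHe NASH, with 1 tumour above the lowest of these livers. In IgAkMup it stood at 8.30, 8.93, 8.78 and 7.09 in tumours and 9.07, 9.50 and 9.53 in NASH, without overlap. Its difference was -1.38 ± 0.52 in MupHe (limma adjusted p = 0.0448) and -1.09 ± 0.52 in IgAkMup (adjusted p = 0.0917, not past the threshold). MupHe NASH 6 held the highest Saa1 and Saa2 of all 35 libraries. Without it the MupHe differences were -0.63 for Saa1 (adjusted p = 0.413), -0.82 for Saa2 (0.305) and -0.78 for Saa3 (0.160). Saa1 and Saa2 also lost the MupHe call without tumour 3 (-0.97 and -1.07, adjusted p = 0.160 and 0.130). Saa1 lost it without tumour 7 (-1.46, 0.0537) and Saa2 without tumour 2 (-1.45, 0.0562). In IgAkMup, Saa2 lost it without tumour 9 (-1.23, 0.0720) or NASH liver 6 (-1.49, 0.0569).

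Saa3 differs from the other serum amyloid A genes in being made mostly outside hepatocytes. It stood at 5.88, 4.51, 4.99 and 4.60 in MupHe tumours and 5.37, 6.17 and 6.23 in MupHe NASH, again with 1 tumour above the lowest liver. In IgAkMup it stood at 5.30, 5.65, 5.09 and 4.87 in tumours and 6.65, 5.84 and 6.04 in NASH, without overlap. It was lower by -0.93 ± 0.34 in MupHe (limma adjusted p = 0.0384) and -0.95 ± 0.34 in IgAkMup (adjusted p = 0.0253). The MupHe call was also lost without tumour 3 (-0.77, 0.106), tumour 4 (-0.93, 0.0572), tumour 7 (-0.80, 0.101) or NASH liver 2 (-0.81, 0.137). The IgAkMup call was lost without tumour 9 (-0.83, 0.0697) or NASH liver 2 (-0.71, 0.150).

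With only the compared groups in the fit, none of the 3 Saa genes passed in MupHe (adjusted p = 0.135 to 0.194), while Saa2 (0.0329) and Saa3 (0.0268) passed in IgAkMup. Without a filter on low values the 3 MupHe calls were also lost (adjusted p = 0.0720 for Saa1, 0.0572 for Saa2 and 0.0609 for Saa3). Without the 3 tumours that stood apart, none passed in either genotype, the differences being -1.07 to -0.77 in MupHe (adjusted p from 0.0897 to 0.121). In IgAkMup they were then -0.86 for Saa2 (adjusted p = 0.213) and -0.81 for Saa3 (0.115). In CD8kMup none of the 3 passed: Saa1 0.15 ± 0.56, Saa2 0.64 ± 0.57 and Saa3 -0.35 ± 0.36. Of 14 hepatocyte markers 8, 8 and 5 were called lower in MupHe, IgAkMup and CD8kMup tumours, and none higher. Of all kept genes 14.7% and 20.7% were called lower in MupHe and IgAkMup. In CD8kMup 33.8% were called in either direction, of which 16.8% of all kept genes were higher and the rest lower. The summed level of the hepatocyte markers was 19.9 to 20.4 in livers and 19.1 to 20.5 in tumours. This sum is weighted to the strongest marker, Alb, at 18.2 to 20.1 over all libraries. The median of the markers per library was 14.6 to 15.3 in livers and 11.9 to 14.1 in tumours. Their part in the Saa differences was not tested.

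**Figure D3:**
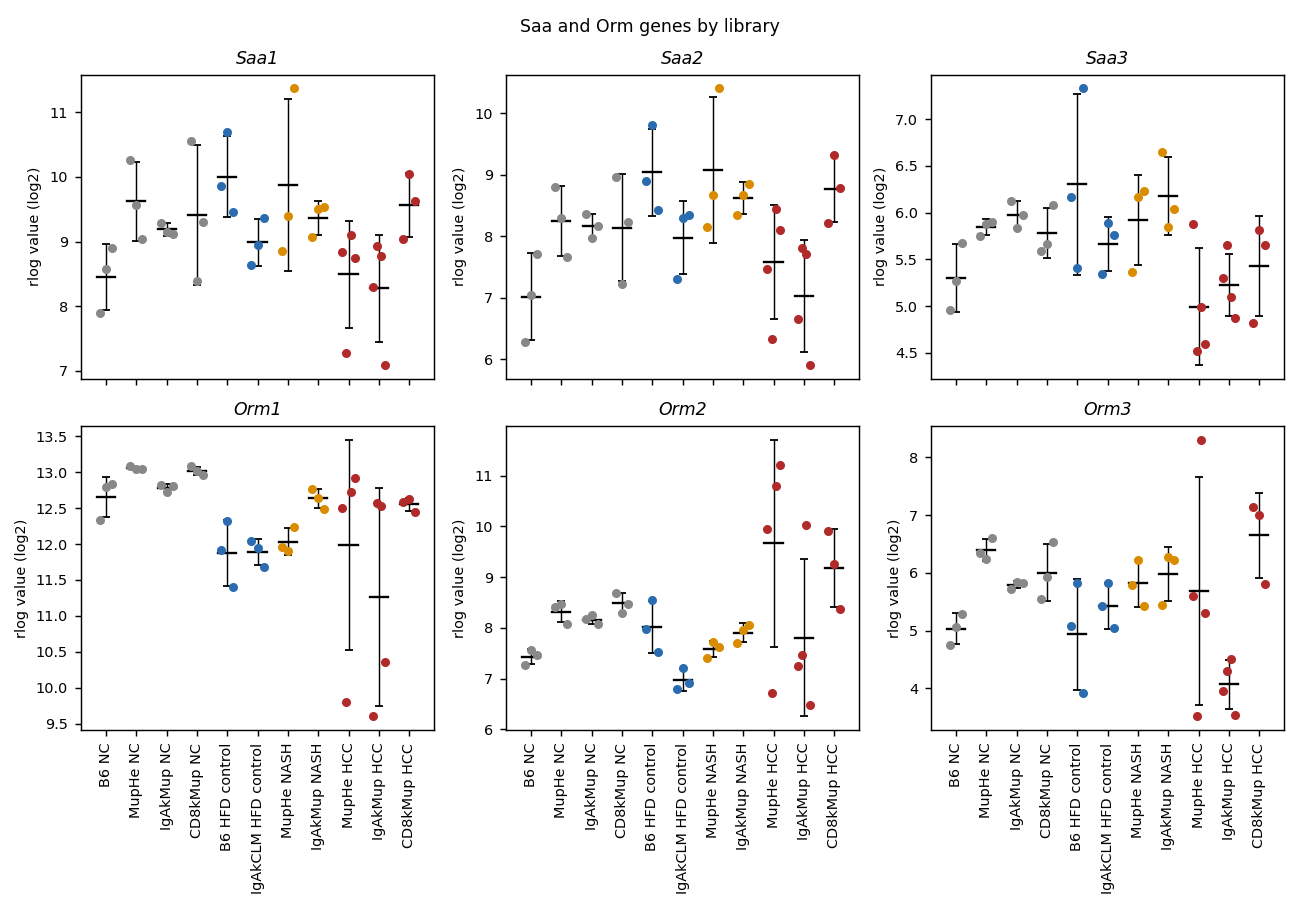
Values of the Saa and Orm genes (rlog, log2, y axes) in each library by group (x axis); bars are group means with SD, and colours are as for Lcn2. MupHe NASH 6 holds the highest Saa1, at 11.37, and the Orm1 values of 3 tumours, at 9.60 to 10.35, lie below all other libraries.

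Orosomucoids are acid glycoproteins of plasma that bind drugs and lipids. Orm1 stood at 12.50, 9.81, 12.73 and 12.92 in MupHe tumours 2, 3, 4 and 7 and at 9.60, 12.58, 12.53 and 10.35 in IgAkMup tumours 5, 7, 8 and 9. The NASH livers had 11.96, 11.90 and 12.24 in MupHe and 12.77, 12.65 and 12.49 in IgAkMup. The 3 low tumours were those that stood apart on the second principal component, and they were below all 24 livers. Orm1 differed by -0.04 ± 0.55 in MupHe (limma adjusted p = 0.962) and was lower by -1.37 ± 0.55 in IgAkMup (adjusted p = 0.0438). Without those 3 tumours the MupHe difference was 0.68, past the threshold and higher (adjusted p = 0.00259), and the IgAkMup difference was -0.08 (adjusted p = 0.756). The IgAkMup call was lost without tumour 5 (-0.81, 0.209), tumour 9 (-1.06, 0.139), or NASH liver 2 (-1.30, 0.113), 3 (-1.36, 0.0932) or 6 (-1.44, 0.0721). It was also lost after quantile normalization (-0.84, 0.215), without a filter on low values (-1.37, 0.0669) and with the compared groups alone (-1.37, 0.192).

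Orm2 stood at 9.95, 6.71, 10.80 and 11.22 in MupHe tumours and 7.40, 7.72 and 7.62 in MupHe NASH. In IgAkMup it stood at 7.24, 7.46, 10.04 and 6.48 in tumours and 7.70, 7.96 and 8.05 in NASH. MupHe tumour 3 was below all MupHe NASH livers and the other MupHe tumours were above them, while among IgAkMup tumours 8 alone was above. Orm2 was higher by 2.09 ± 0.68 in MupHe (limma adjusted p = 0.0202), and by 3.07 without tumour 3 and the other 2 tumours that stood apart (adjusted p = 3.26e-06). The call was lost without tumour 4 (1.71, 0.0672), tumour 7 (1.57, 0.0850), NASH liver 1 (2.00, 0.0626) or NASH liver 6 (2.11, 0.0554), and with the compared groups alone (adjusted p = 0.189). In IgAkMup the difference was -0.10 ± 0.68 (95% interval -1.49 to 1.29).

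Orm3 stood at 3.95, 4.30, 4.51 and 3.54 in IgAkMup tumours and 5.44, 6.28 and 6.22 in IgAkMup NASH, without overlap. It was lower by -1.91 ± 0.60 (limma adjusted p = 0.0113), and the call held with each library left out (-2.18 to -1.73, adjusted p up to 0.0469), with the compared groups alone (0.00361) and without the 3 tumours (-1.58, 0.0317). In MupHe, Orm3 stood at 5.61, 3.52, 8.31 and 5.30 in tumours and 5.79, 6.23 and 5.43 in NASH, a difference of -0.13 ± 0.60. Tumours 3 and 4 lay far below and far above those livers. The SD within tumour groups was 1.29 for Orm1, 1.62 for Orm2 and 1.29 for Orm3, against 0.15, 0.17 and 0.30 within NC groups, where the median over all kept genes was 0.27 in tumours and 0.15 in NC livers. In CD8kMup none of the Orm genes passed: -0.47 ± 0.59, 0.70 ± 0.72 and 0.64 ± 0.64 for Orm1, Orm2 and Orm3.

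Between tumours of different genotypes, which share the tag, members passed in 1 of 3 comparisons. In CD8kMup against IgAkMup tumours 2 genes passed, both higher, against 22.9% of all genes called and 11.8% called higher. Orm3 stood at 7.14, 7.01 and 5.80 in CD8kMup tumours, all above the IgAkMup tumours, and was higher by 2.57 ± 0.60 (limma adjusted p = 0.00344). That call held with each library left out (2.33 to 3.00) and with the compared groups alone (adjusted p = 0.0219). Saa2 stood at 8.22, 9.33 and 8.78, also without overlap, and was higher by 1.76 ± 0.53 (adjusted p = 0.0186). The Saa2 call was lost without CD8kMup tumour 4 (1.48, 0.101) or 8 (1.75, 0.0520), without IgAkMup tumour 9 (1.38, 0.0738), without the tumours that stood apart (1.01, 0.188) and with the compared groups alone (0.0872). Without IgAkMup tumour 7 the same comparison called 5 genes, with Saa1 (1.51, 0.0446), Orm1 (1.73, 0.0214) and Hpx (0.87, 0.0175) added and Saa2 and Orm3 kept. Without IgAkMup tumour 8 it called 4, with Orm1 (1.71, 0.0245) and Orm2 (2.13, 0.0136) added.

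IgAkMup against MupHe tumours gave 0 calls among the 10 genes by limma (10.1% of all genes), and 2 at an unadjusted p under 0.05, Orm2 (-1.87 ± 0.63, adjusted p = 0.0554) and Orm3 (-1.61 ± 0.55, adjusted p = 0.0611). Without the 3 tumours that stood apart both passed, at -1.91 (adjusted p = 0.00545) and -2.0 (0.0190). Leaving out MupHe tumour 3 alone called 4 genes: Orm1 (-1.45, 0.0120), Orm2 (-2.85, 9.67e-05), Orm3 (-2.33, 0.00100) and Hpx (-0.77, 0.0251). Hpx also passed without IgAkMup tumour 7 (-0.77, 0.0419) and Orm2 without IgAkMup tumour 8 (-2.61, 0.00352).

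CD8kMup against MupHe tumours gave 0 calls (1.32% of all genes) and 3 at an unadjusted p under 0.05, Lcn2 (-1.20 ± 0.43, limma adjusted p = 0.151), Saa2 (1.19 ± 0.53, 0.260) and Saa1 (1.07 ± 0.52, 0.305). Without the tumours that stood apart Lcn2 (-1.53, 0.0281) and Orm2 (-1.47, 0.0400) passed, and without MupHe tumour 4 Orm3 did (1.84, 0.0122). The difference between IgAkMup and MupHe in the step from NASH to HCC gave 0 calls (10% of all genes) and 2 at an unadjusted p under 0.05, Orm2 (-2.19 ± 0.96, adjusted p = 0.143) and Orm3 (-1.77 ± 0.85, 0.180). Without the 3 tumours Orm2 (-2.23, 0.0137) and Orm1 (-0.77, 0.0352) passed. Leaving out MupHe tumour 3 alone, where 2440 of all genes were called, Orm1 (-2.05, 0.0179), Orm2 (-3.18, 0.00224) and Orm3 (-2.49, 0.0143) passed. Leaving out IgAkMup tumour 8 alone, Orm2 passed (-2.93, 0.0239).

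Among livers, none of the 10 genes passed the limma test between HFD control and NASH. Over both genotype pairs 1.32% of all genes passed, and Lcn2 alone of the 10 had an unadjusted p under 0.05 (0.73 ± 0.33, adjusted p = 0.339). All NASH livers are of Mup genotypes and the HFD controls are not, so genotype and stage cannot be told apart here. MupHe NASH against IgAkCLM HFD control, both with the tag Tri, gave 0 calls (0.559% of all genes) and again 1 at an unadjusted p under 0.05, Lcn2, at 8.24, 8.50 and 8.77 against 6.71, 7.01 and 7.66. The groups did not overlap, and Lcn2 differed by 1.38 ± 0.46 (adjusted p = 0.202). With the compared groups alone Lcn2 (adjusted p = 0.0157) and Orm2 (0.61, 0.0357) passed, against 745 of all 12337 genes. IgAkMup NASH against B6 HFD control, both with the tag SS, gave 0 calls (0.251% of all genes) and 0 at an unadjusted p under 0.05, with Lcn2 at 0.09 ± 0.46 (95% interval -0.85 to 1.03).

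B6 HFD control livers differed from B6 NC livers in 4 of the 10 genes, all higher, against 20.6% of all genes called and 9.59% called higher. The median over the 10 genes was 0.85, and over all kept genes 0.0034. Diet label, tag and listed tools differ together between these groups and cannot be told apart. Lcn2 stood at 8.65, 7.72 and 7.31 against 5.59, 5.55 and 6.18, and was higher by 2.12 ± 0.46 (limma adjusted p = 0.00169). Saa2 stood at 8.89, 9.82 and 8.42 against 6.29, 7.05 and 7.71, and was higher by 2.03 ± 0.57 (adjusted p = 0.0123). Hp stood at 15.38, 15.02 and 14.96 against 14.22, 14.23 and 14.34, and was higher by 0.86 ± 0.24 (adjusted p = 0.0134). In none of these did the groups overlap.

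Saa1 was higher in the same comparison by 1.55 ± 0.56 (limma adjusted p = 0.0480), at 9.85, 10.69 and 9.46 against 7.89, 8.57 and 8.90, without overlap. Its call was lost with any 1 library left out (1.20 to 1.82, adjusted p = 0.0507 to 0.190), without a filter on low values (0.0736) and after quantile normalization (1.46, 0.0677). Saa2 lost its call without HFD liver 2 (1.64, 0.0664) or NC liver 1 (1.67, 0.0816), and Hp without HFD liver 1 (0.73, 0.0756). Lcn2 kept it throughout (1.74 to 2.41). Saa3 (1.00 ± 0.36, adjusted p = 0.0502) and Hpx (0.84 ± 0.31, 0.0565) fell just short. Saa3 passed without HFD liver 2 (1.45, 0.00692) or NC liver 3 (1.19, 0.0426), with the filter at 5 (0.0453) and with median centring (1.03, 0.0440). Hpx passed without HFD liver 2 (1.00, 0.0452), with the filter at 5 (0.0470), after quantile normalization (0.80, 0.0217) and with the compared groups alone (0.0225). That last fit also called Orm1 lower (-0.78, 0.0491). Of the monocyte and macrophage markers 6 of 18 were called higher, beside 9.59% of all genes, and 0 lower. The part of these cells was not tested.

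**Figure D4:**
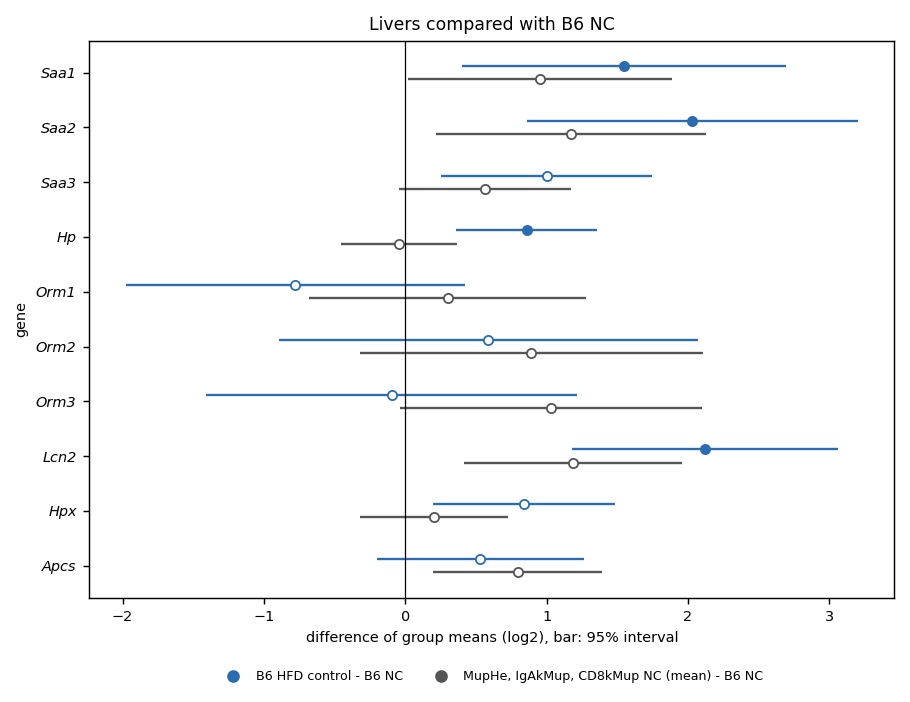
Difference of group means (log2, x axis) for each of the 10 genes (y axis), in B6 HFD control and in the mean of the MupHe, IgAkMup and CD8kMup NC livers, each minus B6 NC; bars are 95% intervals from limma, and filled points passed an adjusted p of 0.05. Lcn2 lies at 2.12 and 1.19, and only the HFD comparison has filled points.

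In NC livers, the mean of the 3 Mup genotypes against B6 gave 0 calls among the 10 genes (0.203% of all genes) and 4 at an unadjusted p under 0.05 (1006 of all 12337 genes), all higher: Lcn2 (1.19 ± 0.38, limma adjusted p = 0.277), Apcs (0.80 ± 0.29, 0.380), Saa2 (1.17 ± 0.47, 0.438) and Saa1 (0.95 ± 0.46, 0.600). The fit over all groups uses a spread that includes the tumours, and its count changed when NC groups alone were fitted. Then 478 of all 12337 genes passed, and among the 10 members 5 did: Orm2 (0.89, adjusted p = 0.000368), Orm3 (1.03, 0.00605), Lcn2 (1.19, 0.00672), Apcs (0.80, 0.0370) and Saa3 (0.57, 0.0474). Orm2 stood at 7.27, 7.56 and 7.46 in B6 NC and at 8.07 to 8.69 in the 9 NC livers of the Mup genotypes. Orm3 stood at 4.76, 5.06 and 5.29 in B6 NC and at 5.56 to 6.60 in the others. In both, the B6 livers lay below all others. Lcn2 also had all 3 B6 livers, at up to 6.18, among its 4 lowest NC values, with CD8kMup NC 2 at 5.94 between them.

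IgAkMup NC against MupHe NC and CD8kMup NC against MupHe NC each gave 0 calls (0.0162% of all genes in each), with 0 of the 10 genes at an unadjusted p under 0.05. With the compared groups alone Orm3 was lower in IgAkMup (-0.60, limma adjusted p = 0.0473), against 200 of all 12337 genes called. MupHe NASH against MupHe NC, both with the tag Tri, but with different diet labels and listed tools, gave 0 calls (1.93% of all genes) and 1 at an unadjusted p under 0.05, Lcn2 (1.35 ± 0.46, adjusted p = 0.140). With the compared groups alone, where 1924 of all genes passed, Lcn2 was higher (adjusted p = 0.000471), and Orm1 (-1.02, 0.000177) and Orm2 (-0.74, 0.00349) were lower. Orm1 stood at 13.08, 13.04 and 13.04 in those NC livers and 11.96, 11.90 and 12.24 in NASH, without overlap. IgAkMup NASH against IgAkMup NC, which differ in tag, diet label and listed tools, gave 0 calls (12.9% of all genes) and 1 at an unadjusted p under 0.05, Hp (0.59 ± 0.24, 0.113). With the compared groups alone, where 3608 of all genes passed, Hp (0.00352), Lcn2 (0.83, 0.0216) and Saa2 (0.46, 0.0280) passed, all higher.

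Across libraries, 8 of the 45 pairs of members moved together after each library's value was set against its group mean (35 libraries, permutation test within groups, adjusted over the pairs). The share of pairs among all kept genes that would pass was not computed, so the count cannot be set against it. Genes outside the list also moved with members, such as Lmbrd1 with Orm2 (Pearson's r = 0.92). Saa1 and Saa2 gave Pearson's r = 0.96 and Spearman's rho = 0.94 (each permutation p = 1e-05, the smallest the permutations can give, adjusted 0.00045), and r was 0.94 without the 2 libraries farthest from the median of Saa1. It was 0.96 in livers and 0.95 in tumours. With transcripts this alike, the authors' counting may have split reads between them, and the current symbol of each is listed as an older name of the other in RefSeq. Saa1 and Saa2 are therefore best read as a pair. Saa1 and Saa3 gave r = 0.21 and rho = 0.22 (permutation p = 0.323 and 0.288, adjusted 0.415 and 0.381), and 0.11 without the 2 farthest libraries. Saa2 gave r = 0.62 with Orm1 and 0.57 with Orm2 (rho 0.65 and 0.58, permutation p of r = 0.00255 and 0.0016, of rho 0.00164 and 0.00196, adjusted 0.0229 and 0.018, and 0.0147 for both rho), and 0.58 and 0.54 without the 2 farthest libraries. Saa1 gave r = 0.54 with Orm1 and 0.51 with Orm2 (rho 0.63 and 0.54, permutation p of r = 0.00668 and 0.0054, of rho 0.0013 and 0.00437, adjusted 0.0376 for both r, 0.0146 and 0.0281 for rho), and 0.47 and 0.45 without them. Hp and Hpx gave r = 0.75 and rho = 0.68 (permutation p = 0.00022 and 0.00054, adjusted 0.00495 and 0.0081), and 0.69 without the 2 farthest. Hp and Lcn2 gave r = 0.68 and rho = 0.68 (permutation p = 0.00104 and 0.0002, adjusted 0.0156 and 0.0045), and 0.64. Orm1 and Orm2 gave r = 0.80 and rho = 0.55 (permutation p = 0.00662 and 0.00817, adjusted 0.0376 and 0.0408), and 0.71. Their transcripts are 91.0% identical, so reads may have been split between them as well. In livers alone r was 0.56 for Hp and Hpx, 0.54 for Hp and Lcn2 and 0.59 for Orm1 and Orm2. In tumours alone it was 0.85, 0.76 and 0.81. Saa1 gave 0.48 with Orm1 and 0.59 with Orm2 in livers, and 0.77 and 0.70 in tumours. Saa2 gave 0.52 and 0.66 in livers, and 0.84 and 0.74 in tumours.

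**Figure D5:**
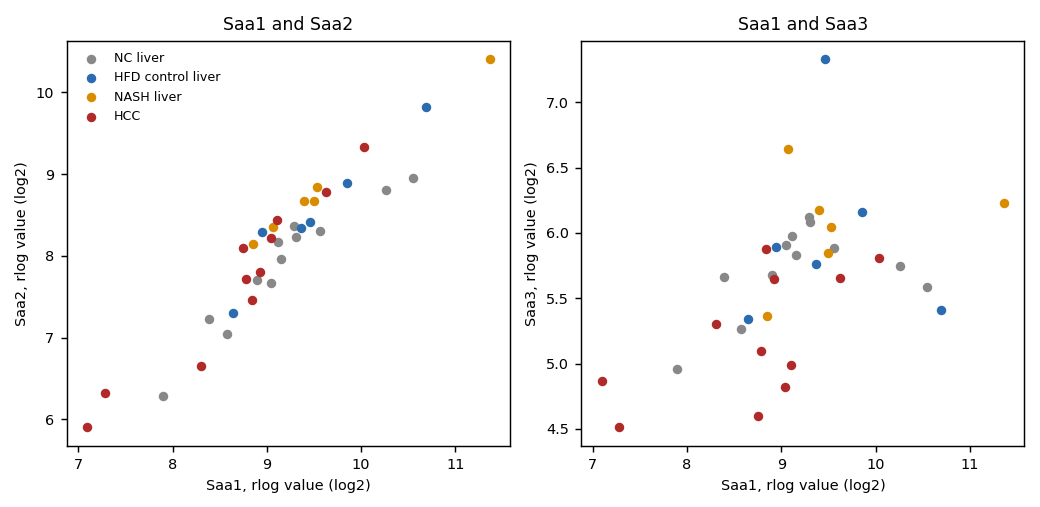
Saa2 (left) and Saa3 (right) against Saa1 (rlog, log2, all axes), with 1 point per library coloured by stage. Saa2 follows Saa1 across livers and tumours (r of deviations from group means 0.96), and Saa3 does so far less (0.21).

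Over all 35 libraries, the genes whose values were most like Lcn2 among the kept genes were Cd14 (Pearson's r = 0.96), Mfge8 (0.95) and Elovl7 (0.95). For Hp they were Hsd17b13 (0.88), Fgf21 (0.88) and Tspo (0.88), and for Apcs Chrm3 (0.84), Tgfa (0.82) and Plpp2 (0.80). For Saa1, apart from the other members, they were Cpeb2 (0.76), Sh3bgrl2 (0.71) and Mfsd8 (0.70), and for Orm2 Tmprss4 (0.88), Flt4 (0.84) and Eif4e2 (0.82). Spearman's rho was lower for the genes like Orm2, at 0.71, 0.55 and 0.72 in that order. These values describe libraries that fall into groups of liver and tumour, and the likeness for Lcn2 and Hp includes that step. On deviations from group means, the nearest were 5330417C22Rik for Lcn2 (0.72), Tnfaip8l1 for Hp (0.78), Cpeb2 for Saa1 (0.72) and Lmbrd1 for Orm2 (0.92). Spearman's rho of these pairs was 0.51, 0.74, 0.76 and 0.71.

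Other genes of the response were counted from lists, beside the 30.7%, 43.8% and 33.8% of all kept genes called in the MupHe, IgAkMup and CD8kMup tumour comparisons. Of 28 other positive acute phase genes kept, 5 were called higher and 6 lower in MupHe tumours against NASH, 5 and 8 in IgAkMup, and 3 and 4 in CD8kMup against NC, so that 11, 13 and 7 of 28 were called in all. Il1rn, the interleukin 1 receptor antagonist, was higher in all 3 (1.89 ± 0.45, 1.38 ± 0.45 and 2.27 ± 0.48). Serpina3k, a serine protease inhibitor, was lower in all 3 (-2.20 ± 0.64, -3.34 ± 0.64 and -2.34 ± 0.68). Hamp, which encodes the iron hormone hepcidin, was lower in MupHe (-2.33 ± 0.71) and its copy Hamp2 in IgAkMup (-3.53 ± 0.65). Of 16 negative acute phase genes 0, 2 and 0 were called higher and 5, 7 and 3 lower. Pon1, a lipoprotein-bound paraoxonase, was lower in all 3 (-3.01 ± 0.40, -3.76 ± 0.40 and -1.33 ± 0.43), and Trf, transferrin, was higher in IgAkMup (1.11 ± 0.28).

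Of 26 kept genes of the interleukin 6, interleukin 1 and STAT3 pathway, 6 were called higher and 4 lower in MupHe tumours, 8 and 4 in IgAkMup and 4 and 3 in CD8kMup. In all 10, 12 and 7 of 26 were called, against 30.7%, 43.8% and 33.8% of all genes. Lif, a cytokine of the interleukin 6 family, was higher in all 3 (1.43 ± 0.19, 1.33 ± 0.19 and 0.68 ± 0.20), and its receptor chain Lifr was lower in all 3 (-1.07 ± 0.31, -0.81 ± 0.31 and -2.09 ± 0.33). Osmr, the oncostatin M receptor, was higher in MupHe (0.69 ± 0.24) and IgAkMup (1.43 ± 0.24), and Socs3, an inhibitor of STAT3 signalling, in IgAkMup (1.39 ± 0.24). Stat3 itself did not pass in any of the 3 (0.11 ± 0.11, 0.17 ± 0.11 and 0.01 ± 0.12). Of 15 kept transcription factors, 1 was called higher and 1 lower in MupHe, 2 and 5 in IgAkMup and 1 and 4 in CD8kMup. In IgAkMup tumours Junb (1.11 ± 0.25) and Nfkb1 (0.67 ± 0.10) were higher. Creb3l3 (-0.65 ± 0.11) and Cebpb, a C/EBP factor of the response (-0.65 ± 0.21), were lower there.

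Among 13 kept receptors and clearance genes, 2 were called higher and 3 lower in MupHe tumours, 2 and 4 in IgAkMup and 3 and 4 in CD8kMup. In all 5, 6 and 7 of 13 were called, against 30.7%, 43.8% and 33.8% of all genes. Cd163, the macrophage receptor that takes up haptoglobin with haemoglobin, was lower in all 3 (-2.48 ± 0.27, -2.50 ± 0.27 and -2.26 ± 0.29). Lrp1, a receptor that takes up hemopexin with haem, was lower in MupHe (-1.27 ± 0.21) and CD8kMup (-1.77 ± 0.22). Tlr2, a receptor of innate immunity, was higher in all 3 (1.37 ± 0.22, 0.76 ± 0.22 and 1.40 ± 0.23). In NASH against HFD control, averaged over both genotype pairs, Cd163 was lower as well (-1.01 ± 0.20, limma adjusted p = 0.00788). It passed in MupHe NASH against IgAkCLM (-1.56 ± 0.29, limma adjusted p = 0.00598). In IgAkMup NASH against B6 HFD control 0 of the 13 genes passed.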

How the data were processed

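The values are regularized log2 values, deposited by the authors in 1 table of 24511 symbols and 41 columns. All samples list STAR and mm10, per the submitters' processing notes, and the 29 HFD samples also list Cuffdiff, the 12 NC samples HOMER and DESeq2. Which program made the table, its version and whether it took all libraries at once is not given in the sources used here. RNA was extracted with AllPrep columns, for some livers with Trizol and RNeasy columns, and the library kit was TruSeq Stranded mRNA, per the labels' protocols. Columns were matched to groups by name, and 6 ambiguous columns were left out. HFD control, NASH and HCC libraries are numbered by the last digit of their column names. No counts were used, so depth is unknown.

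Genes with a mean of at least 3 were kept (12337). All 35 libraries in 11 groups entered 1 limma fit (limma 3.58.1, R 4.3.3, trend) with a mean per group. 16 comparisons were tested, two-sided, with Benjamini-Hochberg adjustment over all kept genes at 0.05. The procedure was tested on simulated data. Summed marker levels are log2 of summed linear values. Pair correlations used 100000 permutations within groups. The members, lists and tests were chosen with earlier results of these data known. All 10 members are named; from each list up to 4 genes per comparison could be named, the 2 largest rises and 2 largest falls past the threshold, beside the markers given with Lcn2; their values in the other tumour comparisons, and Stat3, were added after the values were seen. Alternatives were other filters, median centring, quantile normalization, the compared groups alone, each library left out and, added after seeing the data, leaving out 3 tumours that stood apart.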

Additional observations from a re-analysis of the deposited data

Results flagged for a closer look

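Orm1 in MupHe HCC 3 stood at 9.81, far below the other 3 MupHe tumours at 12.50 to 12.92. Its gap to the nearest tumour was 0.865 of the group's range, above Dixon's 95% critical value for 4 libraries. Among 20 such checks (10 genes in 2 groups of 4 libraries) it was the single one past the value, and chance passes about 1 in 20. IgAkMup HCC 5 and 9 had similarly low Orm1, at 9.60 and 10.35, and the 3 libraries also stood apart from the other tumours on the second principal component.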

How the results depend on the processing

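The Lcn2 calls in the 4 comparisons where it passed, the Hp call in CD8kMup HCC against NC and the Orm3 call in IgAkMup HCC against NASH held under all alternatives run. The depth is unknown, so no counting error can be given, and rlog values can understate differences of weak genes such as Orm3 and Saa3. All 10 members passed every filter.

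With only the compared groups, genes called over all kept genes went from 163 to 862 in NASH against HFD control, from 69 to 745 in MupHe NASH against IgAkCLM HFD control and from 31 to 164 in IgAkMup NASH against B6 HFD control. They went from 3784 to 1210 in MupHe HCC against NASH, from 5408 to 3205 in IgAkMup HCC against NASH and from 1236 to 13 for the difference of these. Among tumours they went from 1249 to 0 for IgAkMup against MupHe, from 163 to 0 for CD8kMup against MupHe and from 2831 to 335 for CD8kMup against IgAkMup. In NC livers they went from 25 to 478 for the Mup genotypes against B6, from 2 to 200 for IgAkMup and from 2 to 26 for CD8kMup against MupHe. They went from 238 to 1924 in MupHe NASH against NC and from 1594 to 3608 in IgAkMup NASH against NC. Members called went from 7 to 1 and from 7 to 4 in MupHe and IgAkMup HCC against NASH, from 2 to 4 in CD8kMup HCC against NC, from 2 to 1 in CD8kMup against IgAkMup tumours, and from 0 to 2, 5, 1, 3 and 3 in MupHe NASH against IgAkCLM, Mup genotypes NC against B6, IgAkMup NC against MupHe NC, MupHe NASH against NC and IgAkMup NASH against NC. The cause was not tested, although the median SD within groups was 0.27 in tumours and 0.15 in NC livers.

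Without the 3 tumours that stood apart, genes called went from 1236 to 2128 for the difference of the HCC steps, from 1249 to 1993 for IgAkMup against MupHe tumours and from 163 to 530 for CD8kMup against MupHe tumours. Members called went from 7 to 3 in IgAkMup HCC against NASH, from 0 to 2 in each of those 3, and from 2 to 1 in CD8kMup against IgAkMup tumours. Orm1 in MupHe HCC against NASH turned from -0.04 to 0.68, and the cause was not tested. Without a filter the Mup genotypes NC against B6 gave 67 genes, IgAkMup NC against MupHe NC 4, CD8kMup NC against MupHe NC 0, and members in MupHe HCC against NASH 4. With the filter at 5 the 2 NC comparisons with MupHe gave 1 and 0. Quantile normalization gave 13 genes in IgAkMup NASH against B6 and 0 in CD8kMup NC against MupHe NC.

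Same-numbered NC libraries did not deviate together: r ran from -0.21 to 0.23, with 3 of 18 pairs over 0.1, and 5 of 12 libraries correlated best with their own number. The fit with the replicate block, on NC groups, gave 386 genes and 5 members for the Mup genotypes against B6, and 9 genes for IgAkMup against MupHe. No paired analysis was possible for the other groups because their columns carry no replicate number of the labels.

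Leaving out 1 library at a time gave these ranges of genes called: 1558 to 2387 in B6 HFD control against NC, 1709 to 3259 in CD8kMup against IgAkMup tumours, 9 to 1088 in CD8kMup against MupHe tumours, 583 to 2895 in IgAkMup against MupHe tumours and 528 to 2440 for the difference of HCC steps. They were 0 to 10 in CD8kMup and 1 to 2 in IgAkMup NC against MupHe NC, 6 to 26 in Mup genotypes NC against B6, 2 to 11 in IgAkMup NASH against B6, 11 to 69 in MupHe NASH against IgAkCLM, 83 to 187 in NASH against HFD control, 96 to 142 in MupHe NASH against NC and 691 to 1469 in IgAkMup NASH against NC. Members called ranged from 2 to 4 in B6 HFD control against NC, 3 to 6 in MupHe and 3 to 7 in IgAkMup HCC against NASH, 1 to 5 in CD8kMup against IgAkMup tumours, 0 to 1 in CD8kMup and 0 to 4 in IgAkMup against MupHe tumours, and 0 to 3 for the difference of HCC steps.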
